A study of Mus musculus with 4 samples.

Results

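The cytokine ligands examined here are 42 mouse genes for secreted or membrane-bound signalling proteins of inflammation, chosen by symbol as interleukins, colony-stimulating factors, interferon gamma and members of the TNF and TGF-beta families. Of these, 40 had a row in the deposited table of 32246 genes, and Il2 and Csf3 were not analysed here. The RNA came from spinal cord cells of C57BL/6 mice in which experimental autoimmune encephalomyelitis had been induced (EAE), a T cell-driven model of multiple sclerosis, enriched for mononuclear cells on a Percoll gradient. All animals had EAE, and from the eighth day of immunization they were given, on alternate days, a scramble micropeptide (Scr, 2 libraries) or microPEP155 (P155, 2 libraries), a short peptide encoded by the host transcript of miR-155. The libraries are numbered 4 and 5 in each group. No library from animals without EAE or without a peptide was used here. The labels give no age, sex, peptide dose or number of animals per library and do not say that each library came from a different animal. The p-values therefore measure only how these samples vary, which may be technical. Values of a group are given in the order replicate 4, replicate 5.

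Cytokines pass signals between cells through surface receptors and act at low transcript levels, often for a short time after induction. In EAE, T cells that make GM-CSF, IL-17 and interferon gamma enter the spinal cord, where myeloid cells and glia answer with IL-1, TNF and IL-6 family ligands. Other ligands, such as IL-33, IL-34, CSF1 and the TGF-beta proteins, are made by resident cells of the healthy cord and sustain microglia or report tissue damage.

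Levels are given as log2(normalized reads + 1), where normalized reads are reads divided by the authors' scaling factor for each library. The libraries held 30777553 to 64702948 reads, with the fewest in P155 replicate 5. In that library 1 read corresponds to a level of 1.43, against 0.86 to 0.88 in the others. A count of 0 allows up to 3 reads, a level of 2.60 in P155 replicate 5 and of 1.79 to 1.82 in the other libraries, and this limit covers counting error only. The preparations were not pure mononuclear cells. Over 8 oligodendrocyte genes the summed normalized reads were 732044 and 753520 in Scr and 777813 and 829321 in P155, whereas 8 pan-leukocyte genes, among them Ptprc and Coro1a, summed to 33085 and 47401 in Scr and to 27729 and 18255 in P155. The leukocyte genes were highest in Scr replicate 5 and lowest in P155 replicate 5. In bulk RNA, fewer cells of a type and less RNA per cell cannot be told apart.

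A few ligands made up most of the cytokine RNA. Corrected for the length of the exons, Il33 had the highest level, with 2895 and 2764 normalized reads per kilobase in Scr and 2792 and 2435 in P155. Il33, an alarmin of the IL-1 family stored in the nuclei of oligodendrocytes and astrocytes, made up 31.2% of the summed mean level of the 40 ligands per kilobase. It was followed by Il18, Csf1, Tnfsf12, Il34, Tgfb3, Ltb and Tgfb1, and these 8 genes together held 82.3%. Their mean levels per kilobase ran from 2721 normalized reads for Il33 and 1015 for Il18 down to 249 for Tgfb1. Neighbours in this order were not all distinct, since the library ranges of Il18, Csf1, Tnfsf12 and Il34 overlapped. Of the cytokines that T cells make in EAE, Ifng was at 12.8 normalized reads per kilobase, Csf2 at 9.67 and Il17a at 1.08. The row of Il4 was at 178 and ranked 10 of 40, but it includes a noncoding transcript, described below, whose part in the reads was not tested.

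**Figure D1:**
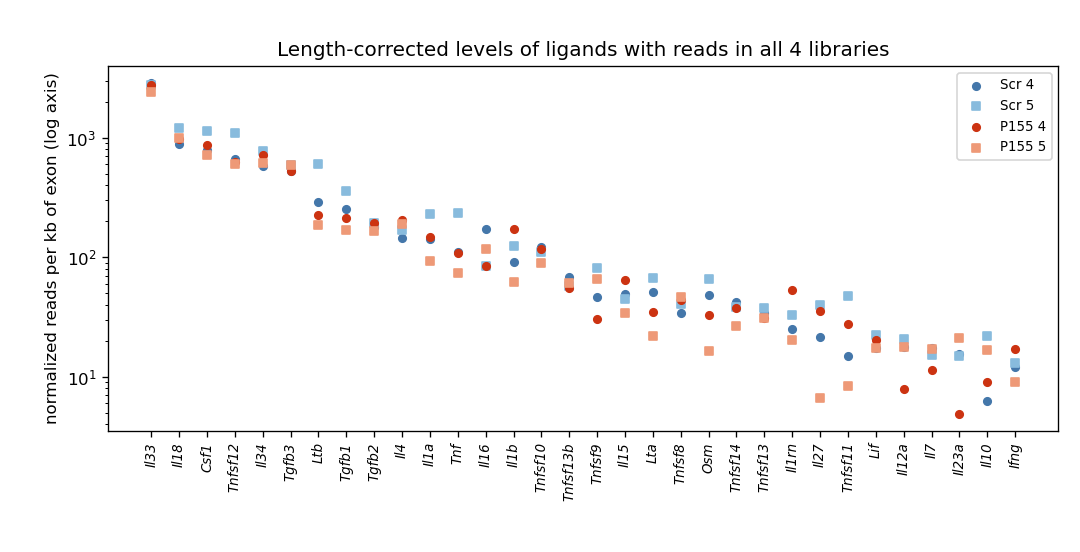
Normalized reads per kilobase of exon (log axis) of the 32 ligands with a read in all 4 libraries, ordered by their mean. Each point is 1 library, with Scr in blue, P155 in red, circles for replicate 4 and squares for replicate 5. Il33 lies above all other ligands in every library.

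Reads were found for 38 and 39 of the 40 ligands in Scr and for 37 and 32 in P155. With reads drawn at random down to the total of the shallowest library, the counts were again 38, 39, 37 and 32. Of all 32246 genes, 28432 and 28064 had a read in Scr and 28206 and 24409 in P155, before reads were drawn down. The count over all genes was thus also lowest in P155 replicate 5. The 8 ligands at 0 in at least 1 library were Csf2, Il12b, Il6, Il17f, Il17a, Il21, Il22 and Il13, and each of them was at 0 in P155 replicate 5. The condition for testing, at least 2 libraries with 1 or more normalized reads, was met by 38 ligands. Il22, with 3 reads in Scr replicate 5 alone, and Il13, with 3 reads in Scr replicate 4 alone, did not meet it.

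**Figure D2:**
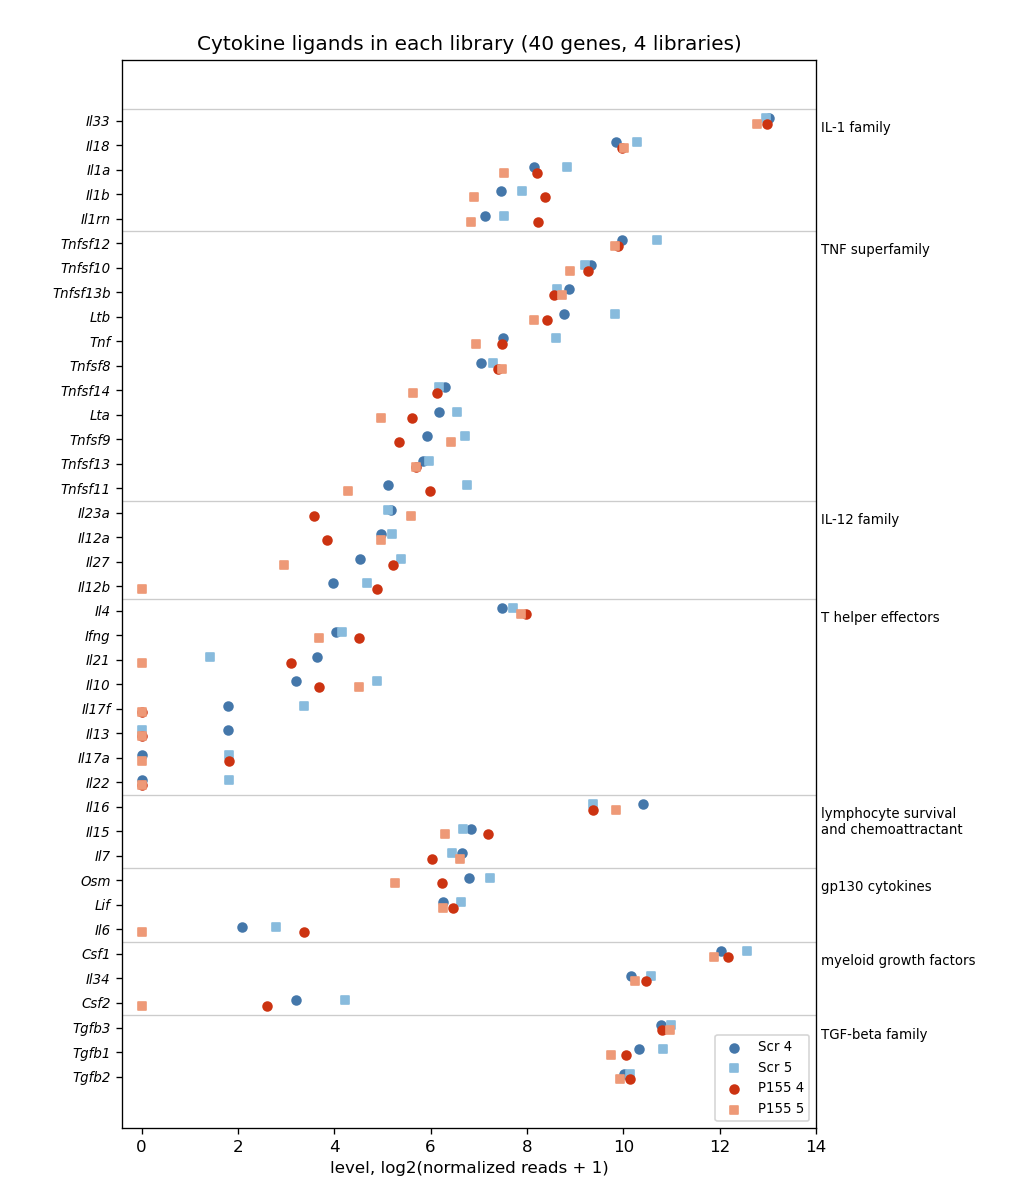
Level of each of the 40 ligands in each library, as log2(normalized reads + 1), grouped by role. Scr libraries are blue and P155 libraries red, with circles for replicate 4 and squares for replicate 5. Levels span from 0 to 13.03, and points at 0 had no read.

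The question of the design is which transcripts, ligands included, differ between spinal cord cells of mice given P155 and of mice given Scr. No ligand passed the test. Of 27079 genes tested by limma, 0 had an adjusted p under 0.05 (0% of all genes), and the smallest adjusted p among the ligands was 0.861. The unadjusted p was under 0.05 for 1179 genes, or 4.35% of all tested, of which those lower in P155 made up 3.18% of all tested, and for 2 of 38 ligands, Il17f and Tgfb1, both lower. Il17f, without a read in P155, met the condition for testing through the Scr libraries alone, so its direction follows from that condition. By limma-voom on the recovered reads, 0 genes passed and 1072 had an unadjusted p under 0.05. The authors' deposited table, whose test is not named, called 171 of 32246 genes at an FDR under 0.05 (0.530%) and none of the 40 ligands. The smallest FDR of a ligand in the authors' deposited table was 0.315, for Ltb.

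The direction of the differences was mostly towards lower levels in P155. With the authors' scaling, 34 of 38 tested ligands had a lower mean in P155 (53.4% of all genes did). With library totals as the scale, 30 of 38 did (52.0% of all genes). Relative to the 8 pan-leukocyte genes, 9 of 38 did (13.2% of all genes). That scale moved the median of all genes from -0.03 to 0.78. The median log2 difference of the 38 ligands was -0.28, beside -0.03 for all genes tested. Without P155 replicate 5 the median of the ligands was -0.10 and 22 of 38 were lower (48.7% of all genes were). Without Scr replicate 5 these values were -0.19 and 23 of 36 (55.3% of all genes). Without Scr replicate 4 they were -0.28 and 30 of 37 (54.9% of all genes). Without P155 replicate 4 they were -0.42 and 30 of 37 (52.6% of all genes). Scr replicate 5 was the highest library for 22 of the 38 ligands and the lowest for 0 of them, while P155 replicate 5 was the lowest alone for 22 and the highest for 2. Over all genes tested, Scr replicate 5 was the highest library in 34.7% and P155 replicate 5 the lowest in 28.4%.

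Both P155 libraries were below both Scr libraries for 10 of the 38 ligands, where 19.6% of all genes tested had that pattern. They lay above for 2 ligands, Il4 and Tnfsf8, beside 15.2% of all genes. The 10 lower ligands were Tnf, Lta, Ltb, Tnfsf12, Tnfsf13, Tnfsf14, Osm, Tgfb1, Csf2 and Il17f, and 6 of them belong to the TNF superfamily. Of these, Il17f met the condition for testing through the Scr libraries alone. Its absence of reads in P155 allows levels above that of Scr replicate 4. The pan-leukocyte genes had both P155 libraries below both Scr libraries in 8 of 8, with list means of 11.63 and 12.16 in Scr and 11.34 and 10.83 in P155. Their part in the lower levels of these ligands was not tested. For 7 of the 10 ligands the order of the libraries was that of the leukocyte genes. That order was Scr replicate 5 first, then Scr replicate 4, P155 replicate 4 and P155 replicate 5. The 10 were taken for P155 below Scr, a pattern the leukocyte genes shared, so only the order within each group could differ. The share of all genes with this order was not computed.

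**Figure D3:**
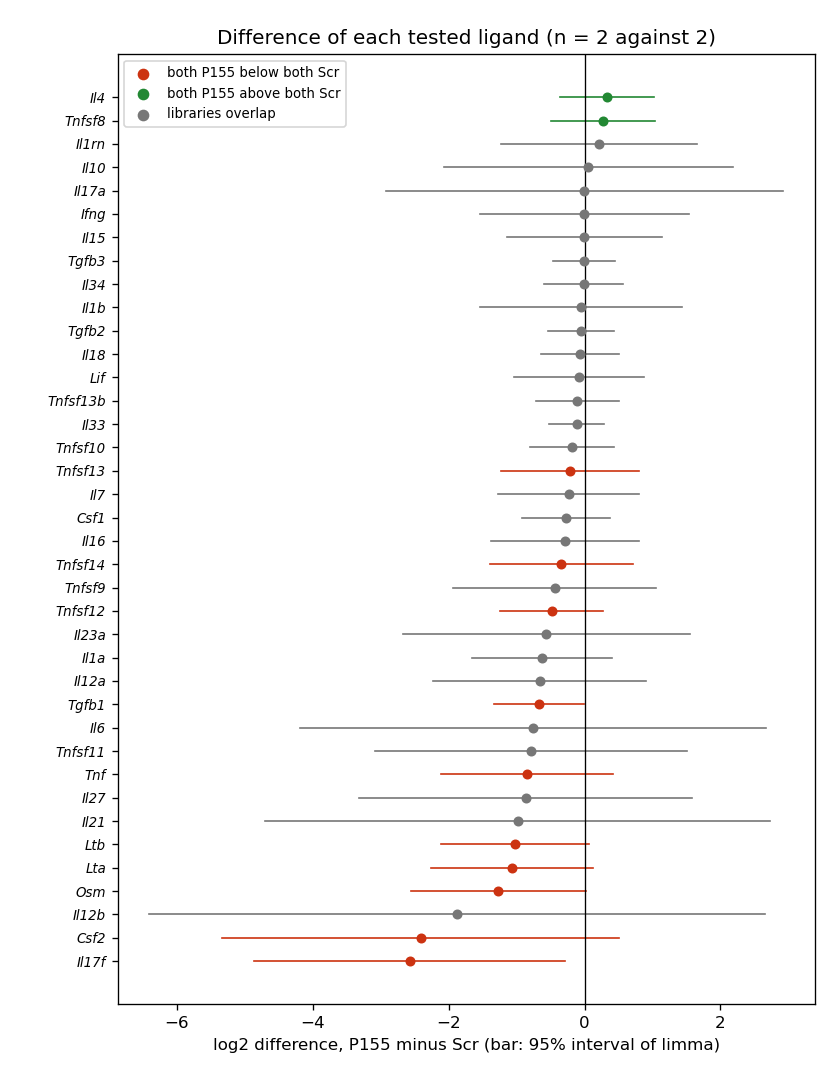
Log2 difference between P155 and Scr for the 38 tested ligands, with the 95% interval of limma. Red marks the 10 ligands with both P155 libraries below both Scr libraries, green the 2 with both above and grey the 26 whose libraries overlapped, on the authors' scaling. The intervals of Il17f and Tgfb1 do not reach 0 before adjustment, but Il17f met the condition for testing through the Scr libraries alone.

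Of 11 TNF superfamily ligands, 10 had a lower mean in P155 on the authors' scaling and on library totals, with 0 past the test. Relative to the pan-leukocyte genes, 3 did. The shares of all genes lower on these scales were 53.4%, 52.0% and 13.2%. The 3 ligands encoded side by side in the MHC region, Ltb, Tnf and Lta, are described first. Ltb, Tnf and Lta lie within 10913 bases of chromosome 17 (Ltb 35194439 to 35196320 on the plus strand, Tnf 35199381 to 35202007 and Lta 35203165 to 35205351 on the minus strand, GENCODE M21, mm10). TNF acts through a pair of receptors on leukocytes, endothelium and glia. Lymphotoxin beta, the product of Ltb, anchors lymphotoxin alpha, the product of Lta, to the surface of lymphocytes as the ligand of the lymphotoxin beta receptor. The RefSeq promoter windows of the 3 genes (GRCm38.p6, the build also called mm10, 250 bases before to 50 after the start site, on the strand of the gene) are shown because these neighbours had the same direction of difference. Capitals mark matches to the kappaB motif of NF-kB, to the AP-1 site TGACTCA and to the TATA box TATAAA, searched on both strands. The Ltb window is chr17:35194257-35194556 (plus strand), the Tnf window chr17:35201958-35202257 (minus strand) and the Lta window chr17:35205302-35205601 (minus strand).
Ltb: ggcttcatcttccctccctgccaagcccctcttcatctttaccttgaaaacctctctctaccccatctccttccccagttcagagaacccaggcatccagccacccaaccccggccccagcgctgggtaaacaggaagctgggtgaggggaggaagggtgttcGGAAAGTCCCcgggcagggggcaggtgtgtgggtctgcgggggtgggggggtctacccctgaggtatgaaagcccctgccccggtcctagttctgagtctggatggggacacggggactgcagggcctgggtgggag
Tnf: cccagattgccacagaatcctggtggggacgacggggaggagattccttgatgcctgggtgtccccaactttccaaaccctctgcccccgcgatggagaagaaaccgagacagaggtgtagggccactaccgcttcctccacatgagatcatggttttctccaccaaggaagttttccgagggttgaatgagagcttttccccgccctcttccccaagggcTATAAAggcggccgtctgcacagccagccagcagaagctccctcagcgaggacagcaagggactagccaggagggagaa
Lta: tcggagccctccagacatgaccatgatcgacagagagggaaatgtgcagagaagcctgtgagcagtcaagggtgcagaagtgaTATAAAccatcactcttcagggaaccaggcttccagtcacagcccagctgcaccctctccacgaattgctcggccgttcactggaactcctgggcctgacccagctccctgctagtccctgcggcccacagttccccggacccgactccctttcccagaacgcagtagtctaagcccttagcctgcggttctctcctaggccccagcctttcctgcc
The Ltb window held 1 kappaB match, on the opposite strand from base -87 relative to the RefSeq start site. That start site is base 35194507, whereas the GENCODE M21 gene begins upstream at 35194439, so the position depends on the annotation used. Such a match was present in 4.51% of the 32851 mouse promoter windows. TATAAA began at base -29 in the Tnf window and at base -167 in the Lta window and was present in 13.6% of all windows, and TGACTCA, present in 5.20%, was in none of the 3. A match is a description of the letters and does not show a site in use.

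Ltb stood at 8.77 and 9.84 in Scr and 8.41 and 8.14 in P155. The groups did not overlap, yet the gap between the nearest libraries was smaller than the gap between the Scr libraries. The log2 difference was -1.03 (SE 0.41, limma adjusted p = 0.861), a level 2.04-fold higher in Scr, and was -0.49 without Scr replicate 5. The authors' deposited table gives an unadjusted p of 0.00487. Lta was at 6.17 and 6.55 in Scr and 5.62 and 4.97 in P155, with a difference on the log2 scale of -1.07 (SE 0.45, limma adjusted p = 0.861). Tnf, at 7.50 and 8.61 in Scr and 7.48 and 6.94 in P155, had nearly equal levels in the replicates numbered 4. Its log2 difference was -0.85 (SE 0.48, limma adjusted p = 0.861) and became -0.30 without Scr replicate 5. Relative to the pan-leukocyte genes these 3 ligands showed differences of -0.22 for Ltb, -0.26 for Lta and -0.04 for Tnf, none past the test. T cell markers, 11 of 11 of them lower, had list means of 7.53 and 8.49 in Scr and 7.50 and 6.76 in P155, and B cell markers, 8 of 8 lower, 8.79 and 9.45 in Scr and 7.47 and 8.12 in P155. The part of T and B cell RNA in the levels of the lymphotoxin genes was not tested.

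Of the other 8 TNF superfamily ligands, 3 had both P155 libraries below both Scr libraries, beside 19.6% of all genes tested. In 1 they lay above, beside 15.2% of all genes. Tnfsf12, which encodes TWEAK, a ligand made by myeloid cells and glia that acts through Fn14, stood at 9.98 and 10.70 in Scr and 9.88 and 9.83 in P155 (log2 difference -0.48, SE 0.29, limma adjusted p = 0.861). Tnfsf13, the gene for the B cell factor APRIL, was at 5.84 and 5.97 in Scr and 5.69 in both P155 libraries. These values are uncertain, because the exons of Tnfsf12 and Tnfsf13 share 731 and 983 bases with the annotated fusion gene Tnfsfm13 on the same strand, and the read counter is not given in the sources used here. Tnfsf14, the gene for LIGHT, a ligand of the lymphotoxin beta receptor and HVEM, was at 6.29 and 6.17 in Scr and 6.13 and 5.64 in P155. Tnfsf8, which encodes the CD30 ligand, was one of the 2 ligands above Scr in both P155 libraries, with 7.04 and 7.29 in Scr and 7.41 and 7.48 in P155 (log2 difference 0.28, SE 0.29, limma adjusted p = 0.871).
Tnfsf13b, the gene for the B cell survival factor BAFF, lay between 8.57 and 8.88 in all libraries. Tnfsf10, which encodes the death ligand TRAIL, lay between 8.89 and 9.33. Tnfsf9, the gene for the 4-1BB ligand, ranged from 5.34 in P155 replicate 4 to 6.72 in Scr replicate 5. Tnfsf11, the gene for RANKL, stood at 5.11 and 6.75 in Scr and 5.99 and 4.29 in P155, with libraries of the groups interleaved.

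The IL-1 family held the most abundant ligand, and its members Il1b and Il1rn differed more within the P155 group than between the groups. Il33 (chromosome 19, 29925114 to 29960718, plus strand) stood at 13.03 and 12.96 in Scr and 12.98 and 12.78 in P155, a difference on the log2 scale of -0.12 (SE 0.15, 95% interval -0.52 to 0.29, limma adjusted p = 0.894). Il18, the gene for an inducer of interferon gamma that is matured by caspase-1, was at 9.84 and 10.27 in Scr and 9.97 and 10.01 in P155 (95% interval -0.65 to 0.51). These intervals hold differences of either sign, so they bound the size of a difference but do not show that the groups were equal. Il1b, the gene for the main inflammasome product, stood at 7.46 and 7.90 in Scr and 8.37 and 6.90 in P155. The P155 libraries were thus the highest and the lowest of the 4. Il1rn, which encodes the receptor antagonist of IL-1, had the same order, with 7.12 and 7.52 in Scr and 8.22 and 6.83 in P155. Per kilobase, the ratio of Il1rn to Il1b was 0.271 and 0.265 in Scr and 0.312 and 0.330 in P155, a narrow range beside the spread of either gene. Markers of neutrophils, cells that can express both genes, had list means of 11.65 and 9.97 in Scr and 8.32 and 10.50 in P155. The list mean was lowest in P155 replicate 4, where Il1b and Il1rn were highest. A lower mean in P155 was seen in 9 of 9 markers (53.4% of all genes). In 1 of 9, or 11.1%, both P155 libraries were below both Scr libraries, beside 19.6% of all genes tested. The part of neutrophil RNA in the levels of Il1b and Il1rn was not tested. Il1a, the gene for the alarmin form of IL-1, was at 8.15 and 8.84 in Scr and 8.20 and 7.53 in P155. Il1b per kilobase was 0.643 and 0.537 times the level of Il1a in Scr and 1.16 and 0.665 times in P155. The ratios of Il1rn to Il1b and of Il1b to Il1a were thus higher in both P155 libraries than in both Scr libraries. The share of all gene pairs with such a pattern was not computed.

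Of the 3 IL-6 family ligands, which signal through gp130, Osm was the one whose groups did not overlap. Oncostatin M is made by myeloid cells and acts on endothelium, astrocytes and fibroblasts. Osm (chromosome 11, 4236420 to 4241026, plus strand) stood at 6.80 and 7.22 in Scr and 6.23 and 5.25 in P155. Both P155 libraries were below both Scr libraries, with a difference on the log2 scale of -1.27 (SE 0.49, limma adjusted p = 0.861), a 2.41-fold higher level in Scr. Without P155 replicate 5 the difference was -0.78, and relative to the pan-leukocyte genes it was -0.46. This rested on 135 and 176 reads in Scr and 88 and 22 reads in P155, and the authors' deposited table gives an unadjusted p of 0.016. Lif, the gene for leukaemia inhibitory factor and a close neighbour of Osm on chromosome 11, was level by comparison, with 6.26 and 6.63 in Scr and 6.47 and 6.27 in P155. Il6, needed for the induction of EAE, was close to the limit of detection, with 4 and 7 reads in Scr and 11 and 0 reads in P155.

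Of the 3 TGF-beta genes, Tgfb1 was the one whose groups did not overlap on the authors' scaling. Tgfb1, the isoform of leukocytes and microglia (chromosome 7, 25687002 to 25705077, plus strand), stood at 10.33 and 10.82 in Scr and 10.07 and 9.75 in P155. The difference on the log2 scale was -0.67 (SE 0.25, 95% interval -1.33 to -0.01, unadjusted p = 0.048, limma adjusted p = 0.861), and -0.42 without Scr replicate 5. In the authors' deposited table Tgfb1 has an unadjusted p of 0.00639 and an FDR of 0.358. Relative to the pan-leukocyte genes the difference was 0.14, in the opposite direction. Tgfb3, at 10.79 and 10.98 in Scr and 10.79 and 10.96 in P155, and Tgfb2, between 9.92 and 10.15 in all libraries, had differences of -0.01 and -0.06 on the authors' scaling. Per kilobase, Tgfb1 was 0.487 and 0.600 times the level of Tgfb3 in Scr and 0.405 and 0.289 times in P155. That ratio does not depend on the scaling of the libraries, and its P155 values lay below its Scr values. The share of all gene pairs with such a pattern was not computed. Of the other ratios of ligands taken, those of Ltb to Lta, Lta to Tnf and Il33 to Csf1 overlapped between the groups. Those of Il1rn to Il1b, Il1b to Il1a and Csf1 to Il34 did not.

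Of the 3 myeloid growth factors with a row, the groups overlapped for Csf1 and Il34 and not for Csf2, on the authors' scaling. Csf1 and Il34 encode the ligands of CSF1R, the receptor that microglia need to survive. Csf1 (chromosome 3, 107741048 to 107760469, minus strand) stood at 12.02 and 12.57 in Scr and 12.16 and 11.89 in P155, a difference on the log2 scale of -0.27 (SE 0.25, limma adjusted p = 0.861) that was 0.0034 without Scr replicate 5. Il34 was at 10.16 and 10.57 in Scr and 10.47 and 10.23 in P155, and the ratio of Csf1 to Il34 per kilobase was 1.35 and 1.49 in Scr and lower, at 1.20 and 1.17, in P155. For this ratio too, the share of all gene pairs with such a pattern was not computed. Homeostatic microglia markers had list means of 11.08 and 11.51 in Scr and 10.93 and 10.96 in P155, 7 of 8 of them lower. Csf2, which encodes GM-CSF, the T cell cytokine that encephalitogenic cells require, was found with 10 and 21 reads in Scr and with 6 and 0 reads in P155 (limma adjusted p = 0.861). The reads of Csf2 were fewer in both P155 libraries, but the library without a read was the shallowest and a 0 there allows up to 3 reads.

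Of the 8 T helper cytokines with a row, 5 were at 0 in at least 1 library, and Ifng, Il10 and Il4 had reads in all 4. Il17f had 3 and 11 reads in Scr and 0 in both P155 libraries. It met the condition for testing through the Scr libraries alone. Its level of 1.79 in Scr replicate 4 is below the limits of a count of 0 in P155, 1.82 and 2.60. Il17f did not pass the test (limma unadjusted p = 0.034, adjusted p = 0.861), and without Scr replicate 5 it had reads in 1 library and was not tested. Il17a had 0 and 3 reads in Scr and 3 and 0 in P155, and a difference in this Th17 gene was not detectable at this depth. Ifng, the gene of the Th1 effector interferon gamma, had 19 and 20 reads in Scr and 26 and 7 in P155, with levels of 4.04 and 4.16 against 4.52 and 3.68. These values are uncertain, because its exons share 336 bases with Gm49751 on the same strand and the read counter is not given. The groups of Ifng overlapped (95% interval of the log2 difference -1.54 to 1.54), an interval too wide to exclude changes of 2-fold in either direction. Il10, the gene of the anti-inflammatory cytokine, ranged from 3.20 to 4.89, and Il21, a product of follicular helper and Th17 cells, had 14 and 2 reads in Scr and 9 and 0 in P155.

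Il4 stood out among the T helper cytokines by its level. It was at 7.49 and 7.70 in Scr and 7.98 and 7.88 in P155, or 139 to 298 reads, while Il13, which Th2 cells express from the same locus, had 3 reads in 1 library. Both P155 libraries were above both Scr libraries, with a difference on the log2 scale of 0.33 (SE 0.26, limma adjusted p = 0.861). The annotated Il4 gene (chromosome 11, 53602982 to 53618669, minus strand, GENCODE M21) includes a noncoding transcript whose last exon, of 179 bases, lies 1014 bases beyond the annotated end of Kif3a, a kinesin gene on the plus strand, while the coding transcripts of Il4 end at 53612460. Kif3a was at 11.92 and 12.01 in Scr and 12.35 and 12.37 in P155, also higher in both P155 libraries. The deposited table gives 1 value per gene, so the part of Kif3a or of that exon in the Il4 reads was not tested.

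The IL-12 family subunits were low and varied between libraries of a group. Il12b encodes the p40 subunit shared by IL-12 and IL-23, Il12a the p35 subunit of IL-12, Il23a the p19 subunit of IL-23 and Il27 the p28 subunit of IL-27. Il12b had 18 and 29 reads in Scr and 34 and 0 reads in P155. Il23a had 43 and 40 reads in Scr and 13 and 28 in P155, lowest in P155 replicate 4 but, at a level of 5.59 against 5.12 to 5.17 in Scr, highest in P155 replicate 5. These subunits thus showed opposite extremes within the P155 group. Il12a ranged from 3.86 to 5.19, with P155 replicate 5 level with Scr replicate 4, and Il27 from 2.95 to 5.37. Dendritic cell markers, whose cells make p40, had list means of 8.08 and 9.06 in Scr and 8.23 and 7.50 in P155.

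The ligands that maintain or attract lymphocytes overlapped between groups. Il7, the gene of a survival factor made by stromal cells, lay between 6.02 and 6.65, and Il15, the gene of a factor for NK and memory T cells, between 6.30 and 7.20. Il16, which encodes a CD4 ligand in lymphocytes and a longer form in neurons, was at 10.42 and 9.37 in Scr and 9.37 and 9.84 in P155. The value of Il16 is uncertain because its exons share 1202 bases with Stard5 on the opposite strand and the use of strand in counting is not given in the sources used here. In all, 14 of the 40 ligands share exonic bases with another annotated gene.

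**Figure D4:**
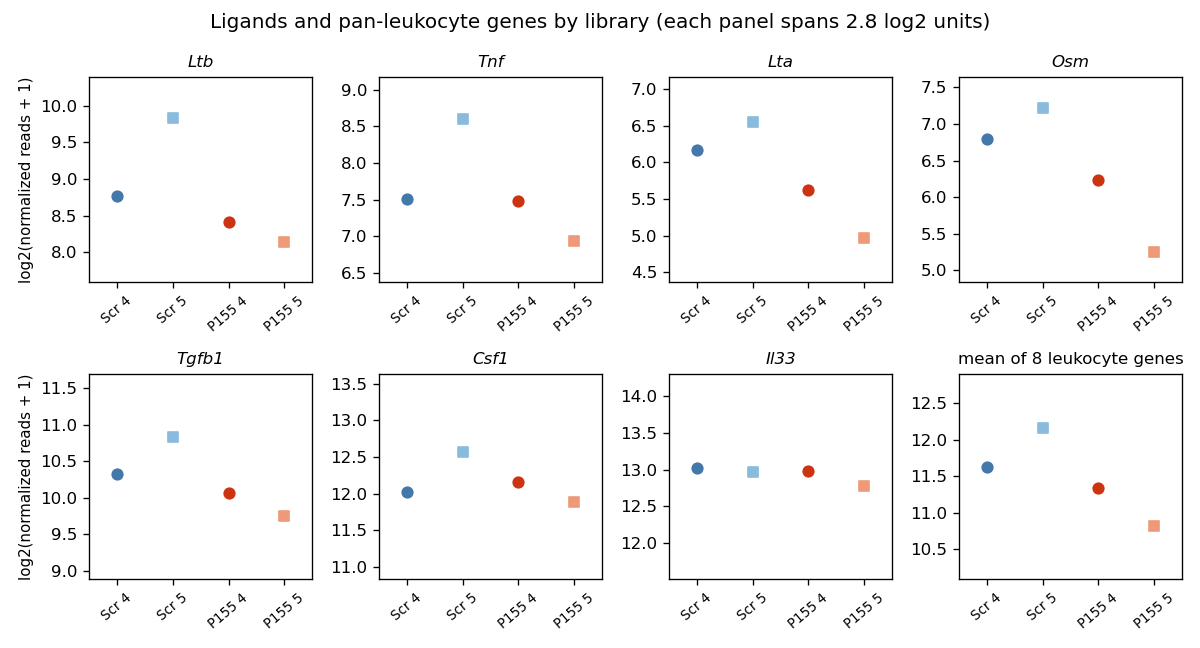
Levels of 7 ligands and the mean of 8 pan-leukocyte genes by library, as log2(normalized reads + 1), with every panel spanning the same range. Ltb, Tnf, Lta, Osm and Tgfb1 have the order of libraries of the leukocyte genes. These ligands were grouped for P155 below Scr, so only the order within each group could differ. Il33 varies by 0.25 from its highest to its lowest library.

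Of 49 receptor genes of these ligands, 45 had a lower mean in P155 on the authors' scaling and on library totals. Relative to the pan-leukocyte genes, 10 did. The shares of all genes lower on these scales were 53.4%, 52.0% and 13.2%. The median log2 difference of the receptors was -0.48 on the authors' scaling. By limma, 0 receptors passed the test and 3 had an unadjusted p under 0.05, all lower in P155. These were 6.12% of the receptors, beside 3.18% of all genes tested. In 22 of 49, or 44.9%, both P155 libraries were below both Scr libraries, beside 19.6% of all genes tested. Pan-leukocyte genes had that pattern in 8 of 8. The receptors with the smallest p were Csf3r, the G-CSF receptor of neutrophils, at 12.10 and 12.65 in Scr and 11.32 and 11.05 in P155, Il18rap, a subunit of the IL-18 receptor, and Il1rl1, the IL-33 receptor, at 6.53 and 6.92 in Scr and 5.67 and 4.89 in P155 (limma adjusted p = 0.861 for each). Il1rl1 thus had a difference on the log2 scale of -1.44 (SE 0.46) beside -0.12 for its ligand gene Il33. This contrast between receptor and ligand was not tested. Mast cell markers, whose cells carry this receptor, were lower in 7 of 7, and 6 of 7 were at 0 in P155 replicate 4 and 4 of 7 in P155 replicate 5. They were low in Scr as well, where 1 was at 0 in replicate 4. Their summed normalized reads were 114 and 87.7 in Scr and 4.22 and 15.2 in P155. The part of mast cells in the level of Il1rl1 was not tested.

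Of 21 genes that process cytokines, release them or limit their mRNA, 17 had a lower mean in P155 on the authors' scaling and on library totals. Relative to the pan-leukocyte genes, 3 did. The shares of all genes lower on these scales were 53.4%, 52.0% and 13.2%. The median log2 difference of the 21 genes was -0.59 on the authors' scaling. In 12 of 21, or 57.1%, both P155 libraries were below both Scr libraries, beside 19.6% of all genes tested. None passed, and 2, or 9.52%, had an unadjusted p under 0.05 and were lower, beside 3.18% of all genes tested. Zfp36, which encodes tristetraprolin, a protein that destabilizes Tnf mRNA, was at 10.53 and 11.31 in Scr and 9.97 and 9.87 in P155 (limma adjusted p = 0.861). Its relative Zfp36l1 was at 11.84 and 12.27 in Scr and 11.53 and 11.49 in P155. Lrrc32, which encodes GARP, the surface anchor of latent TGF-beta on regulatory T cells and platelets, was at 9.30 and 9.47 in Scr and 8.63 and 8.96 in P155.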

How the data were processed

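Poly(A)-selected RNA was, per the labels' protocols, sequenced on an Illumina HiSeq instrument. The submitters' processing notes name bcl2fastq, DESeq2, STAR 2.5.3a and build mm10. Not given in the sources used here: counter, annotation, use of strand and filters. Per gene and library the deposited table holds a log2 value, with the authors' mean log2 values, log2 fold change, p-value and FDR. Undoing the log2 and subtracting 1 gave whole multiples of 1 step per library for 100% of values (tolerance 1e-06), hence the reads.

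Genes with 1 or more normalized reads in at least 2 libraries were compared on log2(value + 1) by limma 3.58.1 (R 4.3.3), its prior following the mean-variance trend, two-sided, Benjamini-Hochberg adjusted over 27079 genes, threshold 0.05. Fold changes on this scale understate those of low genes. The fit was also run on simulated data, and its outcome there is not given here. The smallest exact permutation p for 2 against 2 is 0.333, so no such test was run. Lengths, overlaps and coordinates are from GENCODE M21 (32168 identifiers matched), and promoters from the RefSeq table of GRCm38.p6. Members and lists were chosen with earlier results of these data known. Members were described in full where the groups did not overlap and the higher mean was at least 5 normalized reads, or where they were among the 8 highest per kilobase; of receptors and processing genes, the 3 with the smallest p. Alternatives were a replicate block, each library left out, library totals, other filters, a pseudocount of 0.1, a robust prior, limma-voom, a threshold of 0.1 and thinned reads. Scaling to 8 pan-leukocyte genes was chosen after seeing the data.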

Additional observations from a re-analysis of the deposited data

How the results depend on the processing

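No ligand passed in any setting run. The number of all genes called was 0 in the main comparison and stayed 0 under library totals, no filter, the stricter filter, a pseudocount of 0.1, the robust prior, limma-voom and a threshold of 0.1. With each library left out it ranged from 0 to 6, the 6 without P155 replicate 4, and relative to the pan-leukocyte genes it was 241, of which 21 were lower in P155. The median of the ligands ranged from -0.42 to -0.10 with each library left out and was 0.53 relative to the pan-leukocyte genes, a shift that the construction of that scale gives to all genes. With the replicate number as a block, 0 genes and 0 ligands passed and the median of the ligands was -0.28. Deviations of libraries with the same number correlated at 0.0705 over 27079 genes and at 0.113 over the 17952 with a mean level of at least 5, and the labels do not say what a number marks. The sign turned for genes with small differences. With each library left out, Il18 ranged from -0.28 to 0.15, Csf1 from -0.54 to 0.0034, Il34 from -0.22 to 0.19 and Tgfb3 from -0.10 to 0.087, all 4 highest without Scr replicate 5. Lta ranged from -1.39 to -0.74, Ltb from -1.56 to -0.49, Tnf from -1.40 to -0.30, Osm from -1.76 to -0.78, Tgfb1 from -0.91 to -0.42 and Tnfsf12 from -0.85 to -0.12. Tgfb3 was at 0.0031 with library totals and Il34 at 0.0040 by limma-voom. Relative to the pan-leukocyte genes, differences were 0.69 for Il33, 0.74 for Il18, 0.54 for Csf1, 0.33 for Tnfsf12, 0.80 for Il34, 0.80 for Tgfb3, 0.14 for Tgfb1, 0.47 for Tnfsf14 and 0.60 for Tnfsf13. That scale shifts the difference of every gene by the same amount, so the sign changes on it follow from its construction. The cause of the other sign changes was not tested. With 1 library left out, the lone library of its group was assumed to vary like the other group. For the 8 ligands at 0 in P155 replicate 5, that 0 allows up to 3 reads.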

Other observations

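Other markers that bear on the makeup of the libraries were as follows, on the authors' scaling. Infiltrating monocyte and macrophage genes had list means of 9.83 and 9.93 in Scr and 9.09 and 8.91 in P155, each in the order replicate 4, replicate 5. Fibroblast genes were at 13.41 and 13.32 in Scr and 12.66 and 13.04 in P155. Endothelial genes were at 11.25 and 11.02 in Scr and 11.02 and 10.81 in P155, and astrocyte genes, whose cells express Il33, at 14.48 and 14.36 in Scr and 14.27 and 14.43 in P155. Neuron genes were lowest in Scr replicate 5, at 14.57, and stood at 14.95 in the other Scr library and at 15.06 and 14.92 in P155. Scr replicate 5 had the highest leukocyte genes and the highest level of 22 of the 38 tested ligands. Over all genes tested it was the highest library in 34.7% and the lowest in 31.7%. The part of the makeup of the libraries in the levels of the ligands was not tested.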
